A study of Mus musculus with 4 samples.

Results

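The nuclear genes of the respiratory chain were compared between gonadal white adipose tissue (gWAT) of fl/fl and of AD1KO mice, complex by complex. They were chosen by gene symbol alone: every row of the RNA-seq table whose symbol starts with Nduf, Uqcr, Atp5 or Cox followed by a digit from 4 to 8, together with Sdha, Sdhb, Sdhc, Sdhd, Cyc1 and Cycs, and without the fat and muscle isoforms Cox7a1 and Cox8b. This gave 91 of the 17335 genes in the table. Complex I contributed 44 of them, complex II 4, complex III 9, complex IV 17 and complex V 16, and Cycs stood alone as cytochrome c. Of the 91, 80 are structural subunits or cytochrome c, and the other 11 are the 8 complex I assembly factors, Cox7a2l, Ndufa4l2 and Atp5s.

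AD1KO mice carry floxed Dnmt1 alleles and a Cre transgene driven by the adiponectin promoter, which is active mainly in mature adipocytes, so the other cells of the fat pad are not targeted. The fl/fl mice were littermates with the floxed alleles and no deletion. Both groups were females fed a high-fat diet (HFD) with 60% of calories from fat for 18 weeks. RNA of 4 animals was pooled in equal amounts within each group, which gave 1 library per group. There is therefore no measure of the spread between animals, no test was possible, and each difference below is one between 2 pools.

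The respiratory chain lies in the inner mitochondrial membrane. Complexes I and II pass electrons from NADH and succinate to ubiquinone, complex III passes them on to cytochrome c, and complex IV hands them to oxygen. Complexes I, III and IV pump protons, and complex V, the ATP synthase, makes ATP from the proton gradient. Most subunits are encoded in the nucleus, while the mitochondrial genome encodes core subunits of every complex but II. In white fat the chain also serves lipogenesis and fatty acid oxidation, and in brown fat it drives heat production through Ucp1.

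The table gives expression in FPKM, fragment counts scaled by transcript length and library size. Reads per gene were recovered from FPKM and transcript length, and they summed to 17677457 in fl/fl and 17424301 in AD1KO. Log2 ratios, AD1KO over fl/fl, were taken after adding 0.01 FPKM, for genes with at least 0.1 FPKM in 1 library. All 91 members passed that minimum, as did 15839 genes of the table. A gene at or past a log2 ratio of 0.5 in either direction is called higher or lower in AD1KO. Intervals are 95% Clopper-Pearson intervals on the recovered reads and cover counting error only. Dnmt1 measured 6.99 FPKM in fl/fl and 3.33 FPKM in AD1KO, with a log2 ratio of -1.07 (interval -1.27 to -0.87), the direction of the genotype labels.

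The respiratory chain genes kept nearly the same levels in both libraries, with a small displacement towards AD1KO. Their median log2 ratio was 0.09, with quartiles of 0.01 and 0.20, while the median over all genes tested was -0.04, with quartiles of -0.36 and 0.27. The ratio was above 0 for 68 of 91 members, or 74.7%, beside 45.3% of all genes tested. It lay within 0.1 of 0 for 39 members, or 42.9%, beside 18.7% of all genes. Only 3 members, or 3.3%, were past 0.5, beside 33.4% of all genes: Cox7b2 was higher, beside 14.3% of genes called higher, and Ndufs5 and Atp5g2 were lower, beside 19.1% called lower. In bulk tissue, a different number of cells of a type and a different amount of RNA per cell cannot be told apart.

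Respiratory chain genes are abundant, and abundant genes vary less between libraries, so the same counts were read against genes with at least 10 FPKM in 1 library. Of the 83 members at that level, 63 (75.9%) were above 0, beside 44.8% of 6161 genes, and 37 (44.6%) lay within 0.1 of 0, beside 22.3%. Past 0.5 were 2 members (2.41%), beside 23.0%. Levels were not matched by this minimum: in fl/fl, the median was 156 FPKM over the 83 members and 24.7 FPKM over the 6161 genes. The counting interval lay wholly above 0 for 38 of all 91 members (41.8%), beside 21.5% of all genes tested, and wholly below 0 for 10 (11%), beside 29.0%. Against the abundant genes, these shares were 45.8% of the 83 members beside 31.1%, and 12% beside 39.8%. The SD of the log2 ratio across genes was 0.31 over the 83 members with at least 10 FPKM and 0.601 over the 6161 abundant genes. Without Ndufs5, Atp5g2 and Cox7b2, left out because of their values, the log2 ratios of the other 88 members ran from -0.27 to 0.46. Their SD was 0.143, which is not comparable with 0.601, since no outlying genes were left out of the 6161.

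Cell type markers differed far more than the respiratory chain genes did. All 10 adipocyte markers were above 0, with a median log2 ratio of 0.56 and 8 called higher, and their summed level was 17257 FPKM in fl/fl and 26265 FPKM in AD1KO. All 7 macrophage markers in the table were lower, with a median of -0.98 and sums of 3416 and 1699 FPKM. All 4 T cell markers were lower, with a median of -1.64, and 1 of 3 B cell markers was lower (median -0.20). Endothelial and stromal markers had medians of 0.29 and 0.31 over 3 genes each and none past 0.5. All 3 mesothelial markers were higher, with a median of 0.83, and the 3 muscle genes tested had a median of -0.08. The part of these differences in the values of the respiratory chain genes was not tested.

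**Figure D1:**
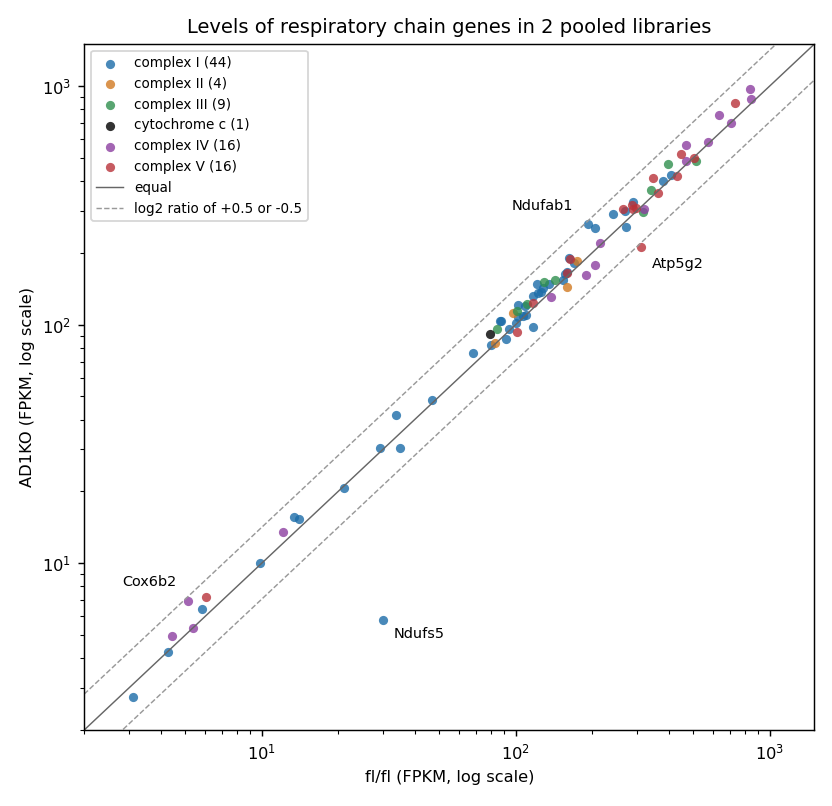
FPKM of each respiratory chain gene in the fl/fl library (horizontal) and the AD1KO library (vertical), both on log scales, coloured by complex; Cox7b2, listed at 0 in fl/fl, is not drawn. The solid line marks equal levels and the dashed lines log2 ratios of 0.5 and -0.5; only Ndufs5 (30 and 5.8 FPKM) and Atp5g2 (312 and 212 FPKM) lie outside the dashed lines.

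The order of levels hardly differed between the libraries, with a Spearman rho of 0.991 across the 91 genes, which share both libraries and are not independent replicates. Of the members, 73 measured from 50 to 1000 FPKM in both libraries. The most abundant transcripts were complex IV and complex V subunits: in fl/fl, Cox6b1 measured 841 FPKM, Cox8a 837, Atp5b 729 and Cox4i1 705. Of the 18 members under 50 FPKM in fl/fl, 8 are structural subunits: the 4 tissue isoforms of complex IV, Ndufs1, Ndufs5, Ndufa11 and Ndufb2. Summed over the 91 genes, the members held 3.2% of all FPKM in fl/fl and 3.61% in AD1KO.

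In complex I, NADH dehydrogenase, 35 of 44 members had a ratio above 0, and the median log2 ratio was 0.09. The sum of their levels was 5312 FPKM in fl/fl and 5757 FPKM in AD1KO, giving a log2 ratio of the sums of 0.12. No complex I gene was called higher, and Ndufs5 alone was lower. Among the 36 structural subunits, 31 were above 0 and the median was 0.11.

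The 7 core subunits of the matrix arm, which hold the flavin and the iron-sulfur clusters, were all above 0, with a median of 0.12 and a range of 0.01 to 0.31. Ndufs1, the largest of them, measured 33.7 FPKM in fl/fl and 41.8 in AD1KO, giving a log2 ratio of 0.31 (0.21 to 0.41). Ndufv1, the subunit that binds NADH and flavin, measured 68.1 and 76.3 FPKM, a log2 ratio of 0.16 (0.07 to 0.26). Ndufs3 was alike, with 128 and 143 FPKM and a log2 ratio of 0.16. The intervals of Ndufs7, Ndufs8 and Ndufv2 held 0, with log2 ratios of 0.01, 0.02 and 0.03.

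The accessory subunits surround this core. Those of the NADH-binding module had a median log2 ratio of 0.13, with 6 of 7 above 0, and those of the proximal membrane arm also 0.13, with 8 of 9 above 0. The distal membrane arm had a median of 0.09, with 9 of 11 above 0. Ndufab1, the mitochondrial acyl carrier protein, had the highest ratio of any member with at least 10 FPKM: it measured 192 FPKM in fl/fl and 263 FPKM in AD1KO, with a log2 ratio of 0.46 (0.37 to 0.54), short of the threshold. Ndufb3 measured 206 and 255 FPKM, a log2 ratio of 0.31 (0.23 to 0.39). Both belong to the distal arm, where Ndufb7, at 273 and 256 FPKM, had the lowest ratio, -0.09 (-0.18 to 0.00).

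Of the subunits at the base of the NADH-binding module, Ndufs6 measured 121 FPKM in fl/fl and 148 FPKM in AD1KO, with a log2 ratio of 0.29 (0.16 to 0.42). Ndufs4 lay on the other side, at 91.8 and 86.9 FPKM, but its interval of -0.19 to 0.03 held 0. Ndufa5, an accessory subunit next to the quinone-binding module, measured 117 and 97.4 FPKM, a log2 ratio of -0.27 (-0.41 to -0.12). Apart from Ndufs5, it was the only complex I gene whose whole interval lay below 0.

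The 8 assembly factors, which build complex I but are not part of it, were not displaced. Their median log2 ratio was 0.00, 4 of 8 were above 0, and all 8 intervals held 0. Their levels ran from 3.13 to 35 FPKM in fl/fl, and so their intervals were wide. The lowest ratio was that of Ndufaf8, at 35 and 30.5 FPKM (log2 ratio -0.20, -0.48 to 0.08), and the highest that of Ndufaf3, at 13.4 and 15.6 FPKM (0.22, -0.04 to 0.49).

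**Figure D2:**
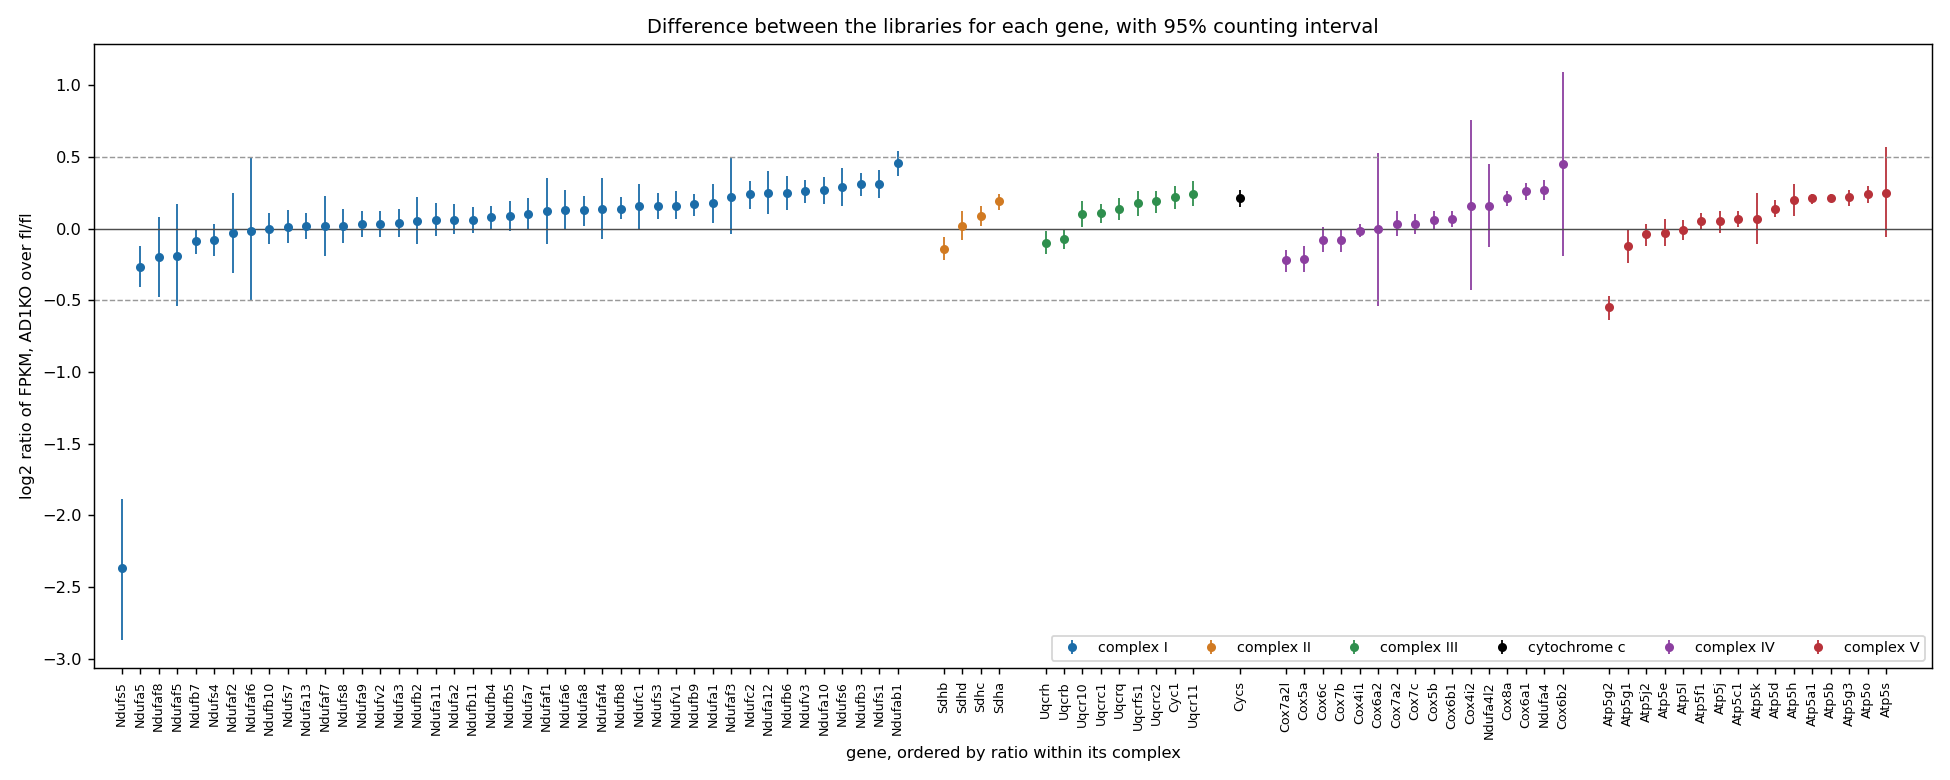
Log2 ratio of FPKM in AD1KO over fl/fl for single genes (vertical), ordered by ratio within each complex, with vertical bars for the 95% counting interval; Cox7b2 is not drawn because it has about 1 read, nor is 1 complex I gene that is not reported here. Dashed lines mark 0.5 and -0.5. Most points sit between 0 and 0.31, Ndufs5 lies at -2.37 and Atp5g2 at -0.55.

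Ndufs5, an accessory subunit of the proximal membrane arm, stood far from every other member. It measured 30 FPKM in fl/fl and 5.8 FPKM in AD1KO, about 224 and 43 reads, a log2 ratio of -2.37 (-2.87 to -1.89). The table also holds an entry without a symbol that the authors annotated as NADH dehydrogenase Fe-S protein 5, the protein that Ndufs5 encodes. This entry measured 194 FPKM in fl/fl and 247 FPKM in AD1KO, with a log2 ratio of 0.35 (0.25 to 0.46), the opposite direction. Added together, the entries came to 224 and 253 FPKM, a log2 ratio of 0.18 (0.08 to 0.27), inside the range of the other complex I subunits. Ndufs5 held 13.4% of this sum in fl/fl and 2.29% in AD1KO. The low value of Ndufs5 was thus not seen in the sum of what was assigned to its protein.

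The mm9 genome holds a near-identical processed copy of this transcript. Ndufs5 lies on chromosome 4, from 123389953 to 123395445 on the minus strand. The copy is annotated as BC002163, a pseudogene that overlaps the protein-coding gene Zbtb20. Its part that matches the coding bases of Ndufs5 lies on chromosome 16, from 42955744 to 42956064 on the plus strand. It matches the Ndufs5 transcript over 504 bases at 99.6% identity. Over the 321 coding bases, stop included, there are 2 differences, T81C and A105G (the base of Ndufs5 first, then the position counted from 1 at the first base of the start codon, then the base of the copy), and both encode the same protein. Bases 61 to 140 of this stretch are printed for both, with the differing bases in capitals, because within it only reads across these positions tell them apart.
Ndufs5: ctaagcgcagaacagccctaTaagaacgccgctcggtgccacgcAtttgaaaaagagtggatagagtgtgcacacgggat
BC002163: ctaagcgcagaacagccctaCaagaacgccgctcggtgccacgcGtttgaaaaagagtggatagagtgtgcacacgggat
The table gives no position for the entry without a symbol, so whether it is this copy was not tested, nor was how the authors' counting divided the reads.

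In complex II, succinate dehydrogenase, which is also an enzyme of the tricarboxylic acid cycle, the 4 genes had a median log2 ratio of 0.05 and none was past 0.5. Sdha, the flavoprotein that oxidises succinate, measured 97.9 FPKM in fl/fl and 112 FPKM in AD1KO, with a log2 ratio of 0.19 (0.13 to 0.24). Sdhb, the iron-sulfur subunit that takes the electrons from Sdha, measured 159 and 144 FPKM, a log2 ratio of -0.14 (-0.22 to -0.06). On the deposited scale these partners had intervals on opposite sides of 0, but with upper quartile scaling, which adds 0.09 to every log2 ratio, Sdhb was at -0.05 and its interval held 0. The membrane anchors lay between them, Sdhc at 174 and 185 FPKM (log2 ratio 0.09) and Sdhd at 82.6 and 83.8 FPKM (0.02).

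Complex III, the cytochrome bc1 complex, had a median log2 ratio of 0.14, with 7 of 9 genes above 0 and none past 0.5. This was above the medians of complexes I, II, IV and V, but without members that have a near-identical copy in the genome, complexes III and IV both had a median of 0.16. Cyc1, the cytochrome c1 subunit, measured 129 FPKM in fl/fl and 151 FPKM in AD1KO, with a log2 ratio of 0.22 (0.14 to 0.30). Uqcrfs1, the Rieske iron-sulfur protein, measured 101 and 114 FPKM, a log2 ratio of 0.18 (0.09 to 0.26). The electron-carrying subunits were thus both above 0, as were the core proteins Uqcrc1, at 143 and 154 FPKM (0.11), and Uqcrc2, at 84.1 and 95.7 FPKM (0.19). Uqcr11, a small accessory subunit, had the highest ratio, at 399 and 472 FPKM (0.24, 0.16 to 0.33). Below 0 were Uqcrh, at 318 and 296 FPKM (-0.10), and Uqcrb, at 512 and 486 FPKM (-0.07), the most abundant gene of the complex in both libraries. Cycs, the soluble carrier between complexes III and IV, measured 79.2 and 91.6 FPKM, a log2 ratio of 0.21 (0.15 to 0.27).

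Complex IV, cytochrome c oxidase, had the lowest share of genes above 0, 64.7%, beside 68.8% in complex V. Among structural subunits alone, both shares were 66.7%. The median log2 ratio over the 17 genes of complex IV was 0.06 and 11 were above 0. Ndufa4, first described in complex I and now counted as a complex IV subunit, measured 468 FPKM in fl/fl and 565 FPKM in AD1KO, with a log2 ratio of 0.27 (0.20 to 0.34). Cox6a1 measured 633 and 759 FPKM (0.26, 0.20 to 0.32), and Cox8a measured 837 and 967 FPKM (0.21, 0.16 to 0.26). Cox5a, a matrix-side subunit, lay on the other side at 205 and 177 FPKM, a log2 ratio of -0.21 (-0.30 to -0.12). Cox7a2l, which joins complexes III and IV into supercomplexes, measured 189 and 161 FPKM, a log2 ratio of -0.22 (-0.30 to -0.15). Cox4i1, the largest nuclear subunit, was level at 705 and 697 FPKM (-0.02, -0.06 to 0.03), and the remaining broadly expressed subunits, Cox5b, Cox6b1, Cox6c, Cox7a2, Cox7b and Cox7c, ran from -0.08 to 0.07.

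Several complex IV subunits have isoforms known from other tissues, and these were rare in both libraries. Cox4i2, known from lung and from low oxygen, made up 0.627% of the summed FPKM of Cox4i1 and Cox4i2 in fl/fl and 0.706% in AD1KO. Cox6a2, the heart and muscle isoform, made up 0.838% and 0.699% of the Cox6a1 and Cox6a2 sum. Cox6b2, a testis isoform, measured 5.11 and 6.97 FPKM, about 38 and 51 reads, and its interval of -0.19 to 1.09 held 0. Cox7b2, another testis isoform, was listed at 0 in fl/fl and measured 0.13 FPKM, about 1 read, in AD1KO. Its call as higher rests on the value added before the ratio was taken, so no fold is given. Ndufa4l2, a relative of Ndufa4 known from hypoxia, measured 12.1 and 13.5 FPKM (0.16, -0.13 to 0.45).

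The excluded fat and muscle isoforms were set beside their partners. Cox8b made up 8.68% of the summed FPKM of Cox8a and Cox8b in fl/fl and 10% in AD1KO. Cox7a1 made up 8.66% and 8.94% of the Cox7a2 and Cox7a1 sum. Cox8b itself measured 79.5 and 107 FPKM, a log2 ratio of 0.43 (0.24 to 0.63), while Ucp1, the uncoupling protein of brown fat, measured 8.39 and 1.38 FPKM, a log2 ratio of -2.60 (-3.13 to -2.08). Cox8b and Ucp1, both enriched in brown fat, thus differed in opposite directions. Of the 8 genes of the brown fat list, 2 were higher and 2 were lower, and the median was 0.10.

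In complex V, 11 of 16 genes were above 0 and the median log2 ratio was 0.07. The catalytic head was the clearest part, with nearly equal ratios in both of its subunits. Atp5a1, the alpha subunit, measured 265 FPKM in fl/fl and 305 FPKM in AD1KO, with a log2 ratio of 0.21 (0.17 to 0.24). Atp5b, the beta subunit that carries the catalytic sites, measured 729 and 845 FPKM, a log2 ratio of 0.21 (0.19 to 0.24). All 4 subunits of the peripheral stalk, which holds the head still, were above 0, with a median of 0.12. The highest of them was Atp5o, at 347 and 410 FPKM (0.24, 0.18 to 0.30). Atp5h measured 163 and 188 FPKM (0.20). An entry without a symbol, annotated as subunit d, the protein of Atp5h, measured 117 and 113 FPKM (-0.05). The sum of Atp5h and this entry had a log2 ratio of 0.10 (0.00 to 0.16). The central stalk, which turns inside the head, had a median of 0.07: Atp5d measured 288 and 318 FPKM (0.14), Atp5c1 290 and 304 FPKM (0.07) and Atp5e 363 and 356 FPKM (-0.03). The intervals of the other membrane subunits Atp5j2, Atp5k and Atp5l held 0, as did that of Atp5s, a coupling factor at 6.06 and 7.23 FPKM (0.25, -0.06 to 0.57).

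The c ring, which rotates as protons pass, is built of 1 protein encoded by 3 genes that differ in the part removed on import. Atp5g2 measured 312 FPKM in fl/fl and 212 FPKM in AD1KO, with a log2 ratio of -0.55 (-0.64 to -0.47), so that its interval held the threshold. Atp5g3 measured 446 and 518 FPKM, a log2 ratio of 0.22 (0.16 to 0.27). Atp5g1 measured 101 and 93.0 FPKM, a log2 ratio of -0.12. The makeup of the c subunit transcripts therefore differed: Atp5g2 made up 36.3% of the summed FPKM in fl/fl and 25.8% in AD1KO, and Atp5g3 51.9% and 63.0%. The summed level, 858 and 824 FPKM, had a log2 ratio of -0.06. Scaled by the upper quartile or to equal FPKM totals, Atp5g2 was not past the threshold.

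The c subunit also has entries without a symbol. The table holds 3 that the authors annotated as the c subunit. The most abundant measured 33.4 FPKM in fl/fl and 66.0 FPKM in AD1KO, with a log2 ratio of 0.98 (0.78 to 1.18), the next measured 23.2 and 23.3 FPKM, and the last was listed at 0 in fl/fl and had about 1 read in AD1KO. Their annotation does not say which c subunit gene they belong to. Added to Atp5g2 alone, they gave a sum of 368 and 302 FPKM, a log2 ratio of -0.29 (-0.36 to -0.21). All c subunit genes and entries together came to 915 and 913 FPKM, a log2 ratio of 0.00 (-0.03 to 0.05). In mm9, Atp5g2 lies on chromosome 15, from 102493299 to 102501478 on the minus strand. A transcript of Atp5g2 of 647 bases has an identical copy, the pseudogene Gm10231, on chromosome 17 from 5816054 to 5816700. Of its bases, 645 also have an identical copy in the pseudogene Gm10175 on chromosome 7, from 24731665 to 24732309, and another identical copy lies on an unplaced contig. Reads from such copies and from Atp5g2 cannot be told apart over these bases, and which copy an entry stands for was not tested.

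**Figure D3:**
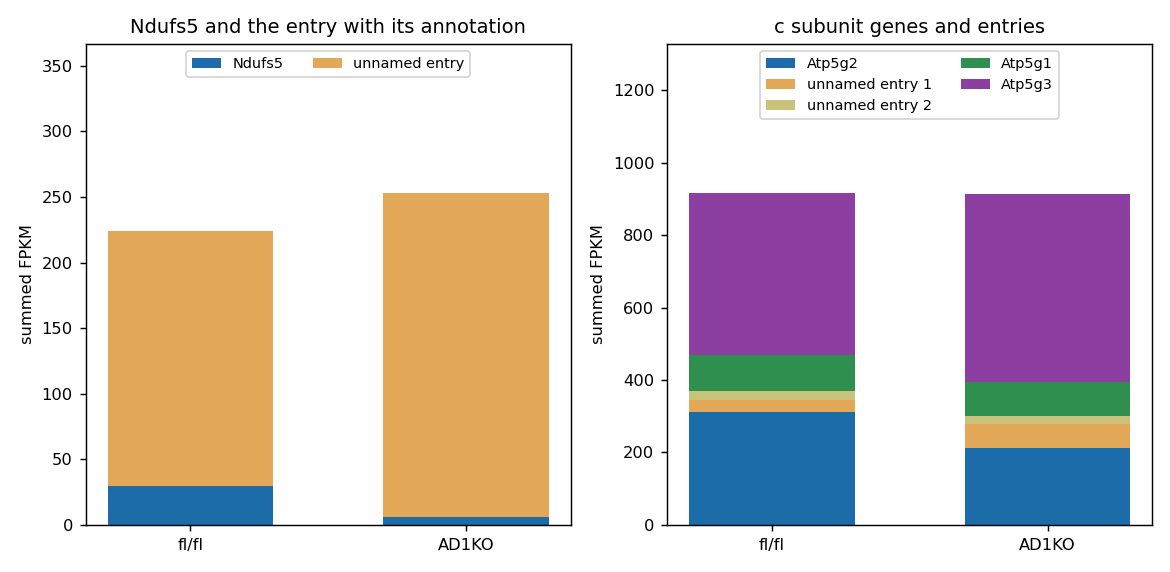
Summed FPKM in the fl/fl and AD1KO libraries, as bars stacked from 0. Left, Ndufs5 (30 and 5.8 FPKM) with the entry without a symbol that carries its annotation (194 and 247 FPKM); right, Atp5g1, Atp5g2 and Atp5g3 with the unnamed c subunit entries, whose sums are 915 and 913 FPKM. An entry with about 1 read is not drawn.

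Other members also have near-identical copies, while genes outside the family were not searched for copies. Of the 87 members with a GENCODE transcript, 17 had at least 1 other place in mm9 that held 80% or more of the transcript in 1 stretch at 95% identity or more, 37 places in all, with 10 for Atp5l alone. The 17 genes with such a copy had a median log2 ratio of 0.03, and 9 were above 0. The 70 without one had a median of 0.12, and 58, or 82.9%, were above 0. The 17 genes with a copy are Ndufab1, Ndufs3, Ndufs5, Ndufs6, Uqcr11, Uqcrb, Uqcrh, Cox5b, Cox6c, Cox7a2l, Cox7c, Atp5g1, Atp5g2, Atp5h, Atp5k, Atp5l and Atp5o. Values of these 17 genes are uncertain to the extent that reads were divided between a gene and its copies.

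The mitochondrial genome's own subunits are not listed by symbol. Its transcripts appear as 2 long entries annotated to cytochrome c oxidase subunit 1, of 14835 and 13931 bases, which span most of that genome and cannot be split into subunits here; a further entry had about 2 reads. They measured 1520 FPKM in fl/fl and 1740 in AD1KO, and 5157 and 6216, log2 ratios of 0.20 and 0.27. Together they took 9.28% of recovered reads in fl/fl and 11.1% in AD1KO, while the 91 nuclear genes took 1.25% and 1.35%. The log2 ratios of both long entries and the median of the nuclear chain genes were thus above 0. Because the entries cannot be split, their values are not those of chain subunits alone.

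Other mitochondrial genes were described from fixed lists. All 14 genes of the tricarboxylic acid cycle outside complex II had ratios above 0, with a median log2 ratio of 0.23, a range of 0.06 to 0.41 and none past 0.5. The 35 assembly factors of the chain that the symbols did not select had a median of 0.11, with 27 above 0. Of these 35, 2 were called higher and 1 lower, a smaller share past 0.5 than the 33.4% of all genes tested. The genes named next were chosen after their values were seen. Acad9, needed to assemble complex I, was higher at 13.9 and 21.2 FPKM (0.61, 0.49 to 0.73). Cox16, of complex IV assembly, was higher at 29.7 and 42.8 FPKM (0.53, 0.35 to 0.70). Sco2, which delivers copper to complex IV, was lower at 4.87 and 3.42 FPKM (-0.51), about 89 and 62 reads. The interval of each held the threshold, and that of Sco2 reached up to -0.02. The 7 other genes linked to electron transport or the synthase had a median of 0.17, with 5 above 0. Only Atpif1, the inhibitor of ATP synthase, was past 0.5. It was lower, at 95.5 and 58.9 FPKM (-0.70), and was also named after its value was seen. The 17 genes of the membranes and protein import had a median of 0.02, with 9 above 0 and none past 0.5.

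The 13 regulators of mitochondrial biogenesis had a median log2 ratio of -0.05, close to the -0.04 of all genes tested, with 5 (38.5%) above 0, beside 45.3% of all genes. Ppargc1a, the coactivator best known for inducing the chain, measured 0.22 FPKM in fl/fl and 0.19 FPKM in AD1KO, about 24 and 21 reads (log2 ratio -0.20, -1.09 to 0.73). Ppargc1b measured 1.23 and 0.9 FPKM, a log2 ratio of -0.45 (-0.98 to 0.07). Esrra, the nuclear receptor they act on, measured 20.3 and 17.7 FPKM (-0.20, -0.35 to -0.05), and Tfam, which packages mitochondrial DNA, measured 6.04 and 5.89 FPKM (-0.04, -0.24 to 0.17). Ppara, named after its value was seen, was the only regulator past the threshold (0.83).

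**Figure D4:**
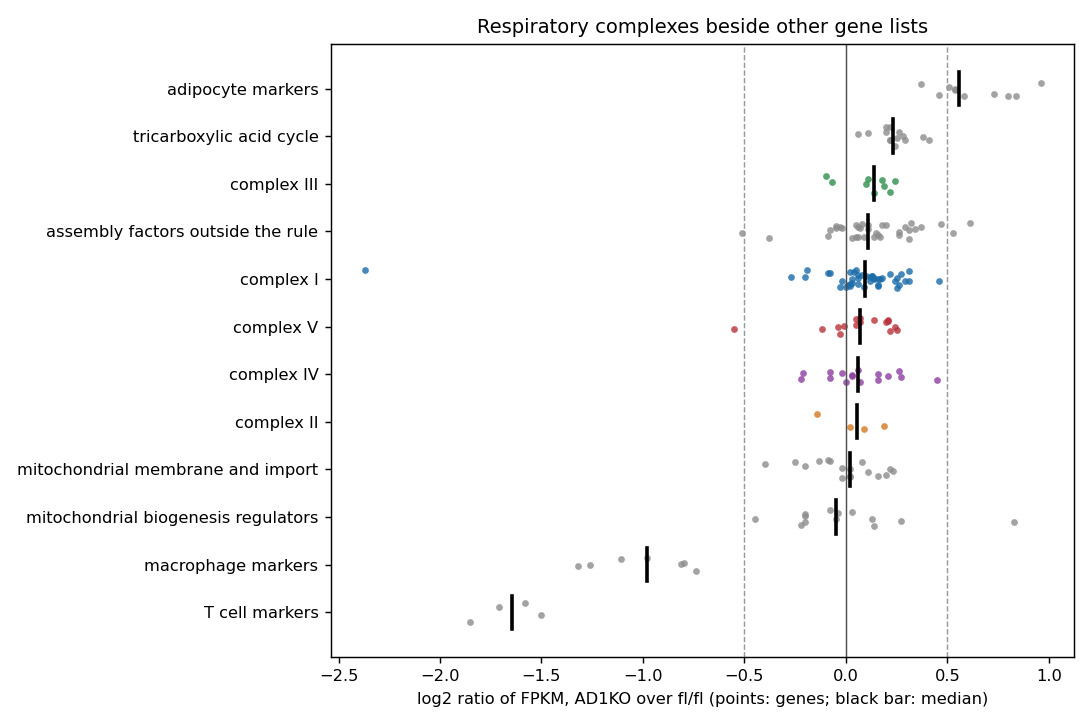
Log2 ratio of FPKM in AD1KO over fl/fl (horizontal) for each gene of the respiratory complexes (coloured) and of other lists (grey); black bars are medians, spread within a row is only for legibility, and dashed lines mark 0.5 and -0.5. Cox7b2 counts in the complex IV median but is not drawn. Medians of the complexes lie between 0.05 and 0.14, those of adipocyte and macrophage markers at 0.56 and -0.98.

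The number of members above 0 depended on how the libraries were scaled to each other. On the deposited scale, 68 of 91 members and 45.3% of all genes tested were above 0. Scaled by the trimmed mean of M-values, by the median of ratios, to equal FPKM totals and by the upper quartile, 76, 76, 79 and 80 members were above 0, beside 50.2%, 50%, 53.6% and 54.4% of all genes. Each scaling adds the same amount to every log2 ratio, 0.09 at most, so the distance of 0.13 between the median of the members and that of all genes, and the order of the complexes, could not change with it. Uqcrb, at -0.07 on the deposited scale, was at 0.02 with upper quartile scaling. Counts of intervals are given on the deposited scale.

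**Figure D5:**
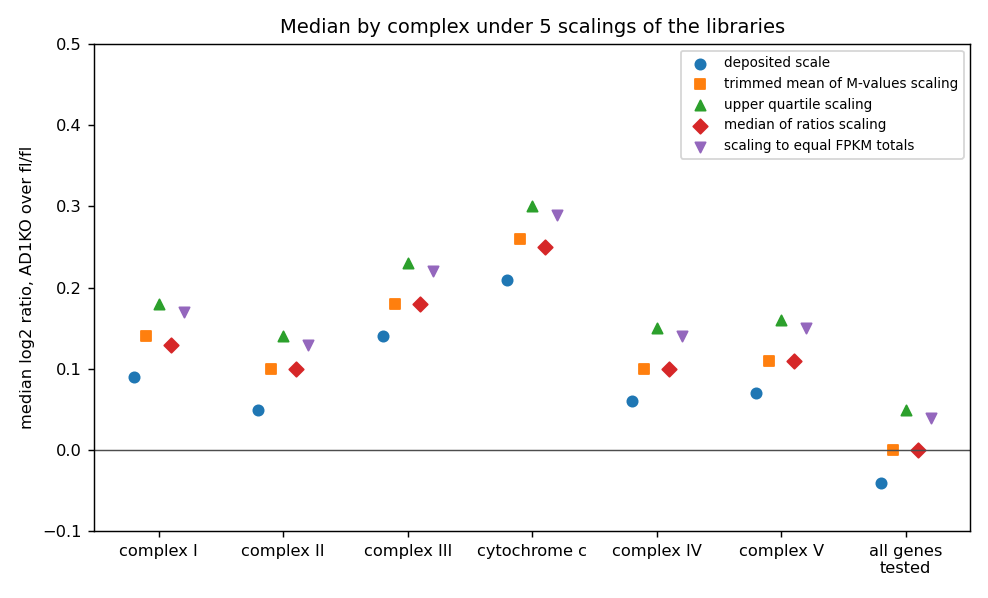
Median log2 ratio of AD1KO over fl/fl (vertical) for each complex, for cytochrome c (1 gene) and for all genes tested, under 5 scalings of the libraries shown by symbols. Each scaling shifts all medians by the same amount. Medians of the complexes are above 0 under each, and from 0.05 to 0.14 on the deposited scale, while that of all genes lies between -0.04 and 0.05.

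The promoters of the chain genes were searched for short motifs known from them. The start in RefSeq's GRCm38.p6 annotation was found for 75 members. The stretch searched began 250 bases upstream of the start and continued past it. Counts and shares below are for this whole stretch, not for the upstream bases alone. Both strands were searched, and a match is only a match of letters. GCATGCG, the core of the site of nuclear respiratory factor 1 (NRF-1), was in 13 promoters (17.3%), beside 3.64% of all 27025 promoters and 5.88% of those of 11901 tested genes. AAGATGGC, of the YY1 type, was in 10 (13.3%), beside 2.88% and 4.13%, and in the members no match lay wholly within the upstream bases. AAGGTCA, the half-site of estrogen-related receptors such as Esrra, was in 8 (10.7%), beside 4.66% and 3.37%. CCGGAAG, of the ETS type that GABP binds, was in 17 (22.7%), beside 9.12% and 16.2%. GGGCGG, of the SP1 type, was in 36 (48.0%), beside 35.9% and 60.1%, and TATAAA in 6 (8.0%), beside 14.2% and 8.28%.

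The 250 upstream bases of Cycs and Cox6a1, with ratios above 0, and of Atp5g2, called lower, are printed because all hold the NRF-1 type letters. Capitals mark these letters, read on both strands, and in Cox6a1 also the ETS type letters near the start. They lie at chr6:50566570-50566819, chr5:115348959-115349208 and chr15:102671048-102671297 of GRCm38.p6, all on the minus strand, and each ends at the base before the start.
Cycs: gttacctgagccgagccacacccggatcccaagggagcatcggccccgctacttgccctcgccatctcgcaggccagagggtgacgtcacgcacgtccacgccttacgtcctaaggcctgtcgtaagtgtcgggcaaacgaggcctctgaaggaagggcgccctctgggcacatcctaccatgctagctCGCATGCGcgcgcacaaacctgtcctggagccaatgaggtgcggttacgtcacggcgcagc
Cox6a1: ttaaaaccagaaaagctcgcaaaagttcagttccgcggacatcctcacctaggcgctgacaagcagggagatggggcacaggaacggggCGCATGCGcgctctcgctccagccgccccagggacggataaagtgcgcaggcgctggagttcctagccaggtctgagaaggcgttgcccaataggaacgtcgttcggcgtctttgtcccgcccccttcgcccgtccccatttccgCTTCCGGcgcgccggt
Atp5g2: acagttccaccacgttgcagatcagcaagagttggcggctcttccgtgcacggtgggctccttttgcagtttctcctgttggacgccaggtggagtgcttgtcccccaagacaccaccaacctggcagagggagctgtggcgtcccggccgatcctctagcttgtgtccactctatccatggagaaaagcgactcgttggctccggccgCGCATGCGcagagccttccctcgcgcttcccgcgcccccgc
The motif was thus present in genes with log2 ratios of 0.21, 0.26 and -0.55. It was in 13 member promoters in all, and the value of Atp5g2 is uncertain because of its copies. No binding or methylation of these promoters was examined.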

How the data were processed

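RNA-seq of gWAT gave 1 pooled library per group, sequenced by the authors' service provider, which aligned clean reads to mouse mm9. The program that counted reads is not given in the sources used here. Per the file headers, the deposited values are FPKM, with 0 written as 0.01 (set back to 0 here), and Length is in bases. The deposited table also holds the authors' own comparison (fold change, P-value and FDR), which was not used. The 2 RRBS samples were not used.

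Low FPKM values of short transcripts are multiples of 1 read, which gave depths of 17515000 reads (fl/fl) and 17295000 (AD1KO) with a length correction of 114 bases. Of 297 and 295 such values, 78.8% and 78.3% lay within 0.15 of a whole read. From these, reads per gene were computed as an estimate. The log2 ratio, its 0.01 FPKM pseudocount, the minimum of 0.1 FPKM and the threshold of 0.5 were set with the comparison, and no p-value was computed.

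Members, lists and motifs were chosen with earlier results of these data known. Any member could be named; in full were given the 3 highest and 3 lowest ratios per complex among members with at least 5 FPKM, core subunits, tissue isoforms and members past 0.5, though some of these appear as a range and 1 is not reported here. Of other genes, Dnmt1, Ppargc1a, Ppargc1b, Esrra, Tfam, Ucp1, Cox7a1 and Cox8b could be named.

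Copies were found by aligning GENCODE transcripts to mm9 with BLAST+ 2.17.0. Alternatives were other pseudocounts, filters, thresholds and scalings. Scaling to equal FPKM totals, adding unnamed entries and leaving out members with a copy were chosen after seeing the data. The steps were tested on simulated data and ran in Python 3.11.15 with Matplotlib 3.10.9, pandas 2.3.3, SciPy 1.17.1 and NumPy 2.4.6.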

Additional observations from a re-analysis of the deposited data

How the results depend on the processing

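No paired analysis was possible because each group is a single pool, and for the same reason no replicate could be left out. The spread between animals is unknown, so differences as small as those of most members cannot be set against it. Low members such as Cox7b2 and Cox6b2 are limited by depth. Members called higher (1) became 0 with a pseudocount of 1 FPKM, with a minimum of 1 FPKM and among genes with at least 10 FPKM, 2 with trimmed mean of M-values scaling, 3 with upper quartile scaling and with equal FPKM totals, and 11 at a threshold of 0.25. Members called lower (2) became 1 with upper quartile scaling, with equal FPKM totals and at a threshold of 1. They became 0 once unnamed entries were added to an assigned gene. The c subunit entries were all assigned to Atp5g2, although their annotation does not say which c subunit gene they belong to. That choice took Atp5g2 from -0.55 to -0.29, so the loss of its call depends on it. Leaving out members with a copy also gave 0, but this removes Ndufs5 and Atp5g2 themselves and cannot test their calls. With the unnamed entry added, Ndufs5 reversed to 0.18. Over all genes, 2265 higher and 3029 lower became 965 and 1661 with a pseudocount of 1 FPKM, 910 and 1417 at a threshold of 1, and 4105 and 5105 at a threshold of 0.25; with a minimum of 1 FPKM, 1281 were higher. The median log2 ratio of all members, of complex III and of complex IV became 0.18, 0.23 and 0.15 with upper quartile scaling and 0.17, 0.22 and 0.14 with equal FPKM totals, and that of complex IV 0.16 without members that have a copy. Single members moved beyond their counting interval in 43 cases with upper quartile scaling, 31 with equal totals, 3 with the trimmed mean, 2 with the median of ratios and 1 with unnamed entries added, apart from Ndufs5.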
